A study of Rattus norvegicus with 6 samples.

Results

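A set of 9 genes of mast cells and of the receptor for immunoglobulin E (IgE) were followed in rat liver after transarterial embolization, out of 32623 genes in the deposited expression table. They are the granule proteases Cpa3, Mcpt1, Mcpt1l1 and Cma1, the IgE receptor chains Fcer1a and Ms4a2, the growth factor receptor Kit, the transcription factor Gata2 and the histamine-forming enzyme Hdc. The genes were taken by symbol, and each symbol matched 1 row of the table. They were selected on earlier results of the same contrast, in which their levels in the TAE and HCC libraries were known, so their levels and changes are given here as a description without a test. The TAE group held 3 liver libraries of a rat hepatocellular carcinoma study, made after transarterial embolization, in which the arteries that feed a tumour are blocked, and the HCC group held 3 liver libraries of that study with no treatment. The labels number the biosamples but do not say that each came from its own animal. Strain, sex, age, the way tumours were raised, the embolic agent and the time between embolization and sampling are not stated in the labels, nor is it given whether the tissue was tumour or the liver around it. Hepatocyte markers were present in every library (Alb was at 5318 to 15304 FPKM in TAE and 12096 to 15868 FPKM in HCC).

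Mast cells arise from bone marrow progenitors and mature in tissues under the growth factor that binds the receptor Kit. They store histamine, proteoglycans and proteases in granules and carry the high-affinity IgE receptor, in which an alpha chain binds IgE, a beta chain amplifies the signal and gamma chains start it inside the cell. When antigen cross-links the bound IgE, the granules are released and lipid mediators are made. In liver, mast cells lie mainly around portal vessels and bile ducts and in scar tissue.

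Total counts were 14552885 to 16604067 in the TAE libraries and 13448286 to 14370846 in the HCC libraries, and FPKM is the read count scaled to exon length and to that total. The TAE libraries were more unlike each other: pairs of libraries correlated at 0.935 to 0.969 within TAE and at 0.984 to 0.991 within HCC (Pearson, log2 CPM, across genes, which are not independent of each other). The correlation of TAE replicate 2 was 0.967 to 0.969 with the HCC libraries, above its 0.935 with TAE replicate 3. In edgeR's quasi-likelihood test of TAE against HCC, 437 of 14499 genes tested passed an adjusted p of 0.05 (3.01%), 392 of them higher in TAE. Without TAE replicate 2 this count was 3569 and without TAE replicate 3 it was 1226, while without TAE replicate 1 it was 1 and without HCC replicates 1, 2 and 3 it was 0, 1 and 0 (2197, 2210, 2243 and 1997 genes with an unadjusted p under 0.05 in these 4 fits, and 756, 852, 992 and 696 called by DESeq2).

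Transcripts of the 4 proteases Cpa3, Mcpt1, Mcpt1l1 and Cma1 were several times more abundant in TAE than in HCC libraries, the mRNA of the IgE receptor alpha and beta chains likewise, and the Kit and Gata2 transcripts were moderately more abundant, whereas Hdc averaged lower. All 9 genes had enough counts to be tested, and 8 of them were higher in every TAE library than in any HCC library, where 18.6% of all tested genes showed that pattern. The log2 change was at least 1 for 7 of the 9 genes and for 8.6% of all tested genes. The median log2 change of the 9 genes was 2.09, and that of all tested genes was -0.03. Mcpt1 and Mcpt1l1 were among the 2.70% of genes that edgeR called higher in TAE, and DESeq2 called 7 of the 9, all but Hdc and Gata2, where it called 10.5% of the genes it tested. Since the genes were proposed from this contrast, these counts support no statement about mast cell genes as a class. The number of mast cells and the amount of each mRNA per cell cannot be told apart in bulk tissue.

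**Figure D1:**
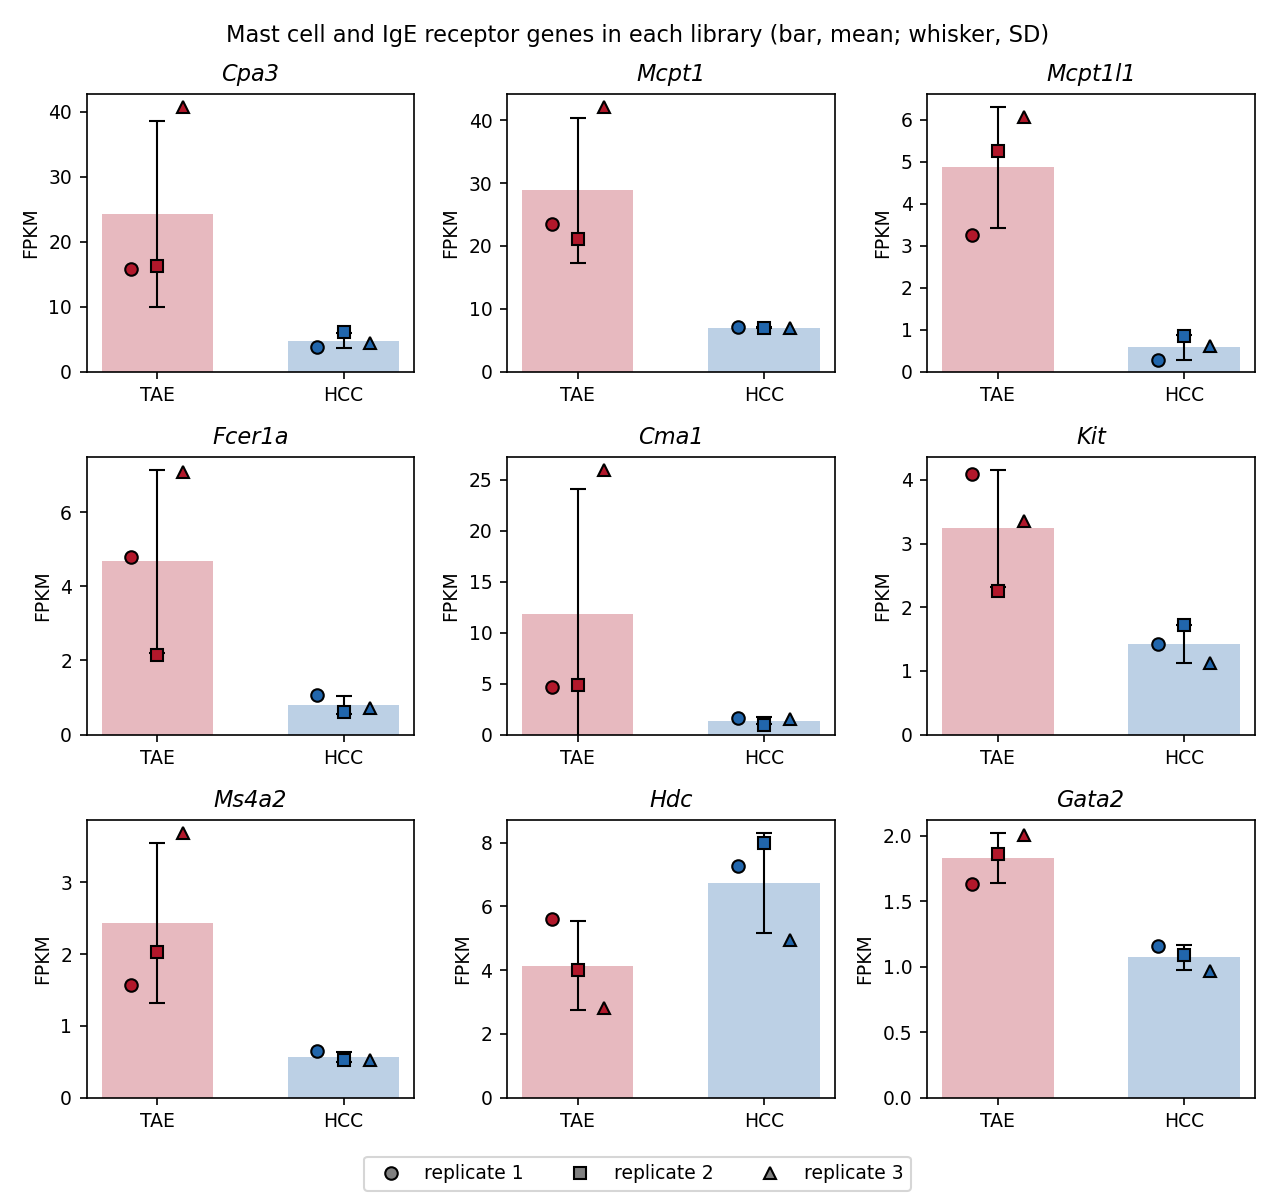
Level of each gene in FPKM (vertical axis, linear from 0) in the 3 TAE and 3 HCC libraries; bars are group means, whiskers are SD (cut at 0 for Cma1 in TAE) and symbols are replicates. The TAE symbols lie above all HCC symbols in every panel but that of Hdc, where TAE replicate 1 (5.60 FPKM) lies above HCC replicate 3 (4.96 FPKM).

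Cpa3 encodes the carboxypeptidase that mast cells store in their granules. It was at 15.8, 16.2 and 40.8 FPKM in TAE replicates 1, 2 and 3, against 3.82, 6.13 and 4.37 FPKM in HCC replicates 1, 2 and 3. The lowest TAE library was thus above the highest HCC library, and TAE replicate 3 stood apart from the other TAE libraries. The means were 24.3 ± 14.3 FPKM in TAE and 4.77 ± 1.21 FPKM in HCC (SD, n = 3 each), a log2 change of 2.36 ± 0.49 (approximate SE), which was 1.63 without TAE replicate 3. The gene (ENSRNOG00000011181) lies on chromosome 2, 105016626 to 105047984, on the minus strand in the deposited table.

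Mcpt1 encodes a chymase, a chymotrypsin-like serine protease of rat mast cell granules, and had the highest FPKM of the 9 genes in every library of either group except HCC replicate 1 and HCC replicate 2, where Hdc was higher. It was at 23.4, 21.1 and 42.1 FPKM in TAE replicates 1, 2 and 3, against 7.07, 6.98 and 6.99 FPKM in HCC replicates 1, 2 and 3. The HCC libraries were nearly alike, with a mean of 28.9 ± 11.6 FPKM in TAE and 7.01 ± 0.0493 FPKM in HCC (SD, n = 3 each), a log2 change of 2.04 ± 0.35. The row is not a simple single gene. Its span on chromosome 15, 34862266 to 35034622 on the plus strand, covers 172357 bases and contains 3 other annotated genes (Mcpt1l3, Mcpt1l4 and AABR07017936.1), so reads credited to Mcpt1 could stem from its close copies.

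Mcpt1l1, a close relative of Mcpt1, had few reads. Its counts were 49, 90 and 104 in TAE replicates 1, 2 and 3 and 4, 12 and 9 in HCC replicates 1, 2 and 3, which correspond to 3.26, 5.26 and 6.07 FPKM in TAE and 0.27, 0.86 and 0.62 FPKM in HCC. All TAE values were above all HCC values, and the log2 change was 3.02 ± 0.49. The current RefSeq gene table lists Mcpt1 as an older name of Mcpt1l1, so a protease named Mcpt1 elsewhere may be either gene. It also lists both rMCP-1 and rMCP-2 among the other names of Mcpt1. Which of these proteases the deposited Mcpt1 row measures is therefore uncertain, and no row has the symbol Mcpt2. The counts of Mcpt1, Mcpt1l1, Mcpt1l3 and Mcpt1l4 were also added, which removes only the split of counted reads among these 4 rows. Shared reads that were not counted, or reads of copies without a row, could still alter the sum. It was 56.3, 53.4 and 103 CPM in TAE replicates 1, 2 and 3, against 17.05, 17.62 and 16.97 CPM in HCC replicates 1, 2 and 3. The mean sum was 71.0 ± 27.9 CPM in TAE and 17.2 ± 0.355 CPM in HCC, a ratio of 4.12, and Mcpt1 itself held 90.1% of these reads.

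Cma1 encodes another mast cell chymase and lies in the same protease cluster of chromosome 15 (34601037 to 34603819, minus strand). It was at 4.69, 4.86 and 26.0 FPKM in TAE replicates 1, 2 and 3, against 1.63, 0.99 and 1.51 FPKM in HCC replicates 1, 2 and 3. TAE replicate 3 was more than 5 times each of the other TAE libraries, so the SD in TAE (12.2 FPKM) exceeded the mean (11.8 FPKM), while the HCC mean was 1.38 ± 0.340 FPKM. The log2 change of 3.15 ± 0.84 was the largest of the 9 genes and was 1.66 without TAE replicate 3.

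Other proteases of the cluster, which were looked up after their values were known, did not pass or had too few reads for edgeR's test. Mcpt8l2 was at 4.41, 4.35 and 8.48 FPKM in TAE replicates 1, 2 and 3 and 1.57, 1.76 and 1.51 FPKM in HCC replicates 1, 2 and 3 (edgeR adjusted p = 0.0631). Per length it was above Mcpt1l4 in every library, and Mcpt1l4 overlapped between the groups at 0.77 to 3.22 FPKM in TAE and 0.80 to 1.19 FPKM in HCC (log2 change 0.82 ± 0.61, edgeR adjusted p = 0.427). Ctsg, the granule protease cathepsin G, was at 0.68, 0.30 and 1.5 FPKM in TAE replicates 1, 2 and 3 and 0, 0.07 and 0 FPKM in HCC replicates 1, 2 and 3. It had 41 reads over all libraries, too few for edgeR's filter, and DESeq2 called it (adjusted p = 0.0130). Mcpt4 had 8 reads over all libraries, with no more than 0.06 FPKM in any. The tryptases, trypsin-like proteases of connective tissue mast cells, were near the limit of detection. Tpsab1 was at 0.39 FPKM in each TAE library and 0 to 0.06 FPKM in HCC, with 25 reads over all 6 libraries, and Tpsb2 at 0.13 to 0.84 FPKM in TAE and 0.05 to 0.11 FPKM in HCC, with 33 reads. On the FPKM scale, which corrects for exon length, both tryptases were thus far below Mcpt1 and Cpa3 in every library.

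Fcer1a encodes the IgE-binding alpha chain of the receptor (chromosome 13, 91730925 to 91737053, minus strand). It was at 4.78, 2.16 and 7.09 FPKM in TAE replicates 1, 2 and 3, against 1.07, 0.61 and 0.72 FPKM in HCC replicates 1, 2 and 3. The groups did not overlap, but TAE replicate 2 came within about 1 FPKM of the highest HCC library. The log2 change was 2.54 ± 0.57, from means of 4.68 ± 2.47 FPKM in TAE and 0.800 ± 0.240 FPKM in HCC.

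Ms4a2 encodes the beta chain, which amplifies the signal (chromosome 1, 227957302 to 227965386, minus strand). It was at 1.57, 2.03 and 3.69 FPKM in TAE replicates 1, 2 and 3, against 0.65, 0.53 and 0.53 FPKM in HCC replicates 1, 2 and 3. TAE replicate 3 was again the highest, and the groups did not overlap. The log2 change was 2.09 ± 0.44, and it was 1.53 without TAE replicate 3.

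Kit, the receptor for stem cell factor (chromosome 14, 35072108 to 35149610, minus strand), is also expressed outside the mast cell lineage. It was at 4.09, 2.26 and 3.36 FPKM in TAE replicates 1, 2 and 3, against 1.43, 1.72 and 1.13 FPKM in HCC replicates 1, 2 and 3, a log2 change of 1.15 ± 0.30. Here TAE replicate 1 was the highest library, not TAE replicate 3, and TAE replicate 2 stood close to the HCC range.

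Gata2, a zinc finger transcription factor that mast cells need and that endothelial cells and blood progenitors also express, varied least among the TAE libraries. It was at 1.63, 1.86 and 2.01 FPKM in TAE replicates 1, 2 and 3, against 1.16, 1.09 and 0.97 FPKM in HCC replicates 1, 2 and 3, a log2 change of 0.73 ± 0.24. The groups did not overlap, and both SDs were small beside the difference (1.83 ± 0.191 FPKM in TAE and 1.07 ± 0.0961 FPKM in HCC).

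Because GATA factors bind DNA at the letters AGATAA and TGATAA, the promoters of the 9 genes were searched for these letters on both strands. RefSeq windows of 300 bases, from 250 before to 50 after the gene's start in the GRCr8 assembly, matched 8 of the 9 genes by symbol, without Ms4a2. The match of Mcpt1l1 is uncertain. Its row lies between Cma1 and Mcpt1 in the deposited coordinates, whereas its window lies beyond that of Mcpt1 in GRCr8. The window may thus belong to another copy than the one whose level is given here. Of the 8, 5 held such letters, namely Cpa3, Mcpt1, Mcpt1l1, Cma1 and Fcer1a, each once, while those of Kit, Hdc and Gata2 had none in this window. Among all 33469 windows, 18.94% held them. The letters begin 55 bases before the start of Cpa3, 64 before that of Cma1, 105 before that of Mcpt1, 103 before that of Mcpt1l1 and 93 before that of Fcer1a. The 5 windows that held the letters are shown, and capitals mark the match. Each window is read 5′ to 3′ on the strand of its gene. Their genes had the largest log2 changes among the 8, but the 9 genes were selected on this contrast, so that is a description only. The match is to letters, and binding was not measured.
Cpa3 (GRCr8 chr2:104673188-104673487, minus strand): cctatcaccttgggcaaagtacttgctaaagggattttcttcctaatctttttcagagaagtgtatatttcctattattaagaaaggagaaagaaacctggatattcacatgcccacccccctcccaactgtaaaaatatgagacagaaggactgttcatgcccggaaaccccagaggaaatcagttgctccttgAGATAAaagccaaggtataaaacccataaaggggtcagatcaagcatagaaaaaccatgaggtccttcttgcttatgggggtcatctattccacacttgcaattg
Cma1 (GRCr8 chr15:33390084-33390383, minus strand): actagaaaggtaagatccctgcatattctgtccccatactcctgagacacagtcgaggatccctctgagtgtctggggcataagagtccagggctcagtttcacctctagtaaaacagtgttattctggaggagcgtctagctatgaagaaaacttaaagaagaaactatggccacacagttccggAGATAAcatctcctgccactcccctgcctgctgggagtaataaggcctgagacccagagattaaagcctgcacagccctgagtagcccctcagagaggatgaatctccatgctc
Mcpt1 (GRCr8 chr15:33841356-33841655, plus strand): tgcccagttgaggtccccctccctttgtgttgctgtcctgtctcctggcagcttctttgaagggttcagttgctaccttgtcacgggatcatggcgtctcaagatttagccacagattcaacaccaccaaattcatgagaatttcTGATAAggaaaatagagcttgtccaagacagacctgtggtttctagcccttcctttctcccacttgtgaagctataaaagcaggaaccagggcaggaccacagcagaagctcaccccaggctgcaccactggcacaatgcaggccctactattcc
Mcpt1l1 (GRCr8 chr15:33876846-33877145, minus strand): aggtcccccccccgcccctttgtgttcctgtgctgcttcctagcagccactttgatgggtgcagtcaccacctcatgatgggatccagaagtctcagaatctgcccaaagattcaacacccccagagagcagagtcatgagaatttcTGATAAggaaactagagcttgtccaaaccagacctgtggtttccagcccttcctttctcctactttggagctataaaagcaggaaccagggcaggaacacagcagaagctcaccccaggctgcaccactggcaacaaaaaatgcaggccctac
Fcer1a (GRCr8 chr13:88224630-88224929, minus strand): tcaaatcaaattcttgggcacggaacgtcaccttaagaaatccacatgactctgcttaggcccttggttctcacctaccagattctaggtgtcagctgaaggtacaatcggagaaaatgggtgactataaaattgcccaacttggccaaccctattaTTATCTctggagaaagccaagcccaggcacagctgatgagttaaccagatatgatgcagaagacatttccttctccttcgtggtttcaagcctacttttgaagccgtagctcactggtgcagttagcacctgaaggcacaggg
In Fcer1a the match is on the opposite strand. The windows of Mcpt1 and Mcpt1l1 were 77.9% identical over an alignment of 317 positions, while that of Cma1 was 53.4% identical to Mcpt1 and 54.1% to Mcpt1l1. The E-box letters CATGTG, a site type of the mast cell factor MITF, were found, counting both strands, in the windows of Cpa3 and Fcer1a and in 13.97% of all windows.

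Hdc, which makes histamine from histidine, ran against the rest. It was at 5.60, 4.00 and 2.82 FPKM in TAE replicates 1, 2 and 3, against 7.26, 7.98 and 4.96 FPKM in HCC replicates 1, 2 and 3. The groups overlapped, and the library with the most Cpa3, TAE replicate 3, had the least Hdc. The means were 4.14 ± 1.40 FPKM in TAE and 6.73 ± 1.58 FPKM in HCC (SD, n = 3 each), a log2 change of -0.77 ± 0.27. On all libraries edgeR and DESeq2 did not call it, while DESeq2 without TAE replicate 1 called it lower. Set against Cpa3 within each library, Hdc was 0.354, 0.246 and 0.0692 times as abundant per length in TAE replicates 1, 2 and 3 and 1.90, 1.30 and 1.14 times in HCC replicates 1, 2 and 3. By the same measure Mcpt1 stayed at 1.03 to 1.48 times Cpa3 in TAE and 1.14 to 1.85 times in HCC, so those ranges overlapped. Mcpt1l1 had a higher ratio in every TAE library than in any HCC library, at 0.149 to 0.324 times Cpa3 in TAE and 0.0707 to 0.142 times in HCC, where it had 4 to 12 reads. Cma1 was at 0.296 to 0.637 times Cpa3 in TAE and 0.162 to 0.427 times in HCC. Ms4a2 was likewise at 0.0906 to 0.125 times Cpa3 in TAE and 0.0865 to 0.170 times in HCC, and Fcer1a at 0.133 to 0.302 times in TAE and 0.0995 to 0.280 times in HCC. Kit and Gata2 had lower ratios in TAE, at 0.0825 to 0.258 and 0.0493 to 0.115 times Cpa3 in TAE, against 0.259 to 0.374 and 0.178 to 0.304 times in HCC.

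**Figure D2:**
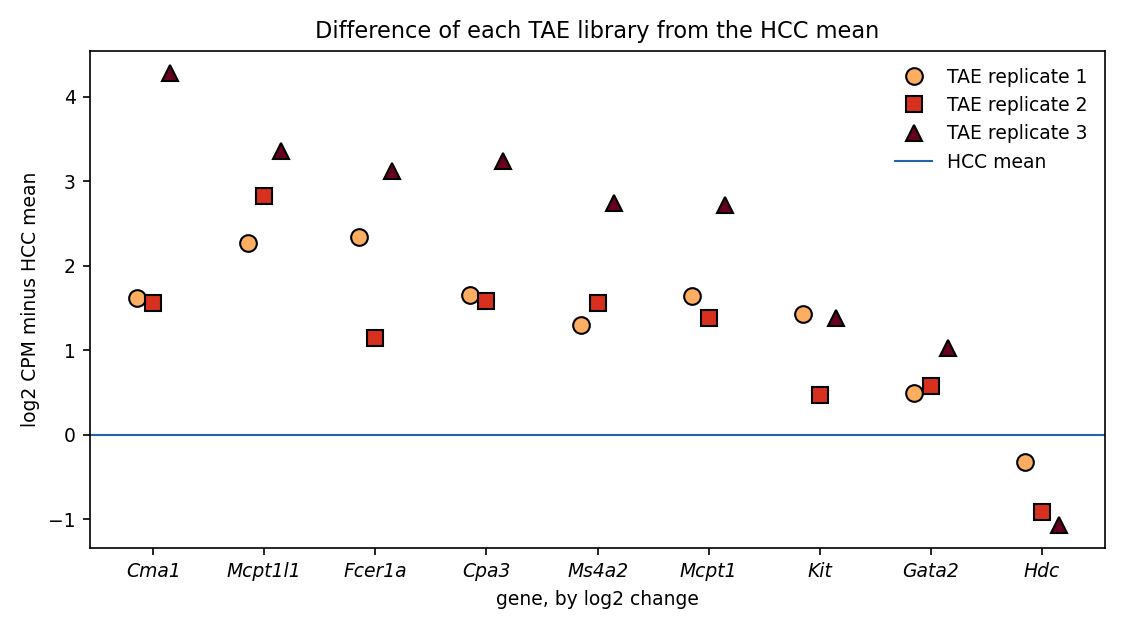
Difference of each TAE library from the HCC mean (vertical axis, log2 CPM) for each gene, ordered by log2 change; symbols are TAE replicates and the line at 0 is the HCC mean. Cma1 in TAE replicate 3 is the highest point at 4.28, against 1.61 and 1.56 in TAE replicates 1 and 2, and Hdc is the gene with all 3 points below 0 (-0.33, -0.91 and -1.07).

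Among the 3 TAE libraries, replicate 3 had the highest level of 7 of the 9 genes, with Kit and Hdc highest in replicate 1. Relative to the HCC mean, Cpa3 was 8.54-fold in TAE replicate 3 but 3.32-fold and 3.40-fold in replicates 1 and 2. The step was larger for Cma1, at 18.9-fold in TAE replicate 3 against 3.41-fold and 3.53-fold in replicates 1 and 2, and smaller for Mcpt1l1, at 10.4-fold against 5.59-fold and 9.02-fold. TAE replicate 3 was also the TAE library with the most hepatocyte transcripts: the summed level of 8 hepatocyte markers was 9945, 7542 and 21957 FPKM in TAE replicates 1, 2 and 3, against 17891 to 22942 FPKM in HCC. The part of tissue composition in the difference among the TAE libraries was not tested.

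Genes whose profile was most like that of Cpa3 were sought by the root mean square difference between log2 CPM profiles over the 6 libraries, each centred on its own mean. The nearest of the 14499 tested genes with a gene symbol were RT1-DMa (0.25), Trpv2 (0.26), Lilrb4 (0.26), Cd300le (0.27), Mcpt1 (0.28), Lgals3 (0.28), Arl11 (0.31) and Dpep1 (0.31), where the median over all tested genes was 1.26. RT1-DMa is an MHC class II chaperone chain, Trpv2 an ion channel, Lilrb4 an inhibitory receptor of myeloid cells and Lgals3 the lectin galectin-3. Lilrb4 was at 241, 163 and 431 FPKM in TAE replicates 1, 2 and 3, against 62.0, 88.5 and 66.8 FPKM in HCC replicates 1, 2 and 3, so it too was highest in TAE replicate 3. Among the 9 genes, Ms4a2 (0.34) came next to Mcpt1, followed by Mcpt1l1 (0.52), Fcer1a (0.52), Cma1 (0.56), Kit (0.73) and Gata2 (0.85), and Hdc was far away (1.64). The 9 genes were selected on the contrast that is part of each profile. Their distances therefore partly restate their log2 changes and are a description only.

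The rest of the pathway was read from 5 lists of mast cell and IgE receptor genes outside the 9. The lists were written with earlier results of these data known, so the counts of calls in them support no statement about the pathway as a class. Of 83 entries, 74 matched the table and 54 had enough counts to be tested. Of these 54 genes, 19 rose in TAE and none fell, and 35 did not pass in edgeR's quasi-likelihood test with adjustment over all genes, where 2.70% of all tested genes were called higher and 0.310% lower. DESeq2 tested 59 genes of the lists and called 28 higher and 1 lower, while of all 15914 genes it tested it called 1402 higher and 262 lower. By edgeR, 31 of 55 list genes passed without TAE replicate 2, where 3569 of all 14743 genes tested passed. None of the list genes passed by edgeR without TAE replicate 1 or any single HCC replicate, where 0 or 1 of all genes did. In these fits 29 to 32 list genes and 1997 to 2243 of all genes had an unadjusted edgeR p under 0.05. DESeq2 without the same libraries called 20 to 24 list genes and 696 to 992 of all genes.

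IgE receptor signalling had the most calls. Of 18 genes tested, 11 rose and 7 did not pass, with a median log2 change of 1.03 (the median of all tested genes was -0.03). Fcer1g, the gamma chain of this and other Fc receptors, was at 441, 414 and 631 FPKM in TAE replicates 1, 2 and 3, against 173, 187 and 177 FPKM in HCC replicates 1, 2 and 3, a log2 change of 1.45 ± 0.25 (edgeR adjusted p = 0.0406). Its level was thus far above those of Fcer1a and Ms4a2 per length in every library.

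The kinases next to the receptor rose as well. Lyn, which phosphorylates the beta and gamma chains, was at 75.5, 64.1 and 69.4 FPKM in TAE replicates 1, 2 and 3 and at 33.7, 32.9 and 32.7 FPKM in HCC replicates 1, 2 and 3 (log2 change 1.03 ± 0.15, edgeR adjusted p = 0.0388). Syk, the kinase that docks on the gamma chain, averaged 22.6 ± 4.68 FPKM in TAE and 8.17 ± 0.506 FPKM in HCC (log2 change 1.44 ± 0.23). Fyn and Btk, kinases further along, had log2 changes of 1.10 and 1.33. The adaptors Lat2 and Lcp2, the phospholipase Plcg2 and the inhibitory lipid phosphatase Inpp5d had log2 changes of 1.45, 1.03, 1.25 and 1.10, each with the same edgeR adjusted p of 0.0388, and Vav1 and the phosphatase Ptpn6 completed the 11.

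The genes that did not pass were the adaptors Lat, Grap2 and Gab2, the phospholipase Plcg1, the calcium entry proteins Stim1 and Orai1, and Rasgrp4, an activator of Ras in mast cells. Plcg1 was at 28.6 to 44.1 FPKM in TAE and 34.7 to 37.3 FPKM in HCC (log2 change -0.05). Rasgrp4 was at 9.56, 6.81 and 4.91 FPKM in TAE replicates 1, 2 and 3 and at 3.00, 3.00 and 3.05 FPKM in HCC replicates 1, 2 and 3, just outside the threshold (edgeR adjusted p = 0.0504). The genes that rose are also expressed by macrophages and other leukocytes, and 4 of 8 macrophage markers rose beside them: the summed macrophage level was 3234 to 4207 FPKM in TAE and 1011 to 1279 FPKM in HCC. Most of that sum was Lyz2 (2790 to 3534 FPKM in TAE and 675 to 923 FPKM in HCC), and Cd163 and Marco had log2 changes of -0.10 and -0.05. The part of macrophages in the rise of these genes was not tested. By FPKM within TAE, Lyn, Btk, Lat2, Lcp2, Plcg2 and Inpp5d were highest in replicate 1. Fcer1g, Syk, Fyn, Vav1 and Ptpn6 were highest in replicate 3, as Cpa3 was. FPKM leaves out the TMM scaling factors used in edgeR's test (1.05 in TAE replicate 1 and 0.893 in TAE replicate 3). TMM scaling raises replicate 3 relative to replicate 1, so the order of these 2 libraries can change and sets no gene apart from Cpa3.

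**Figure D3:**
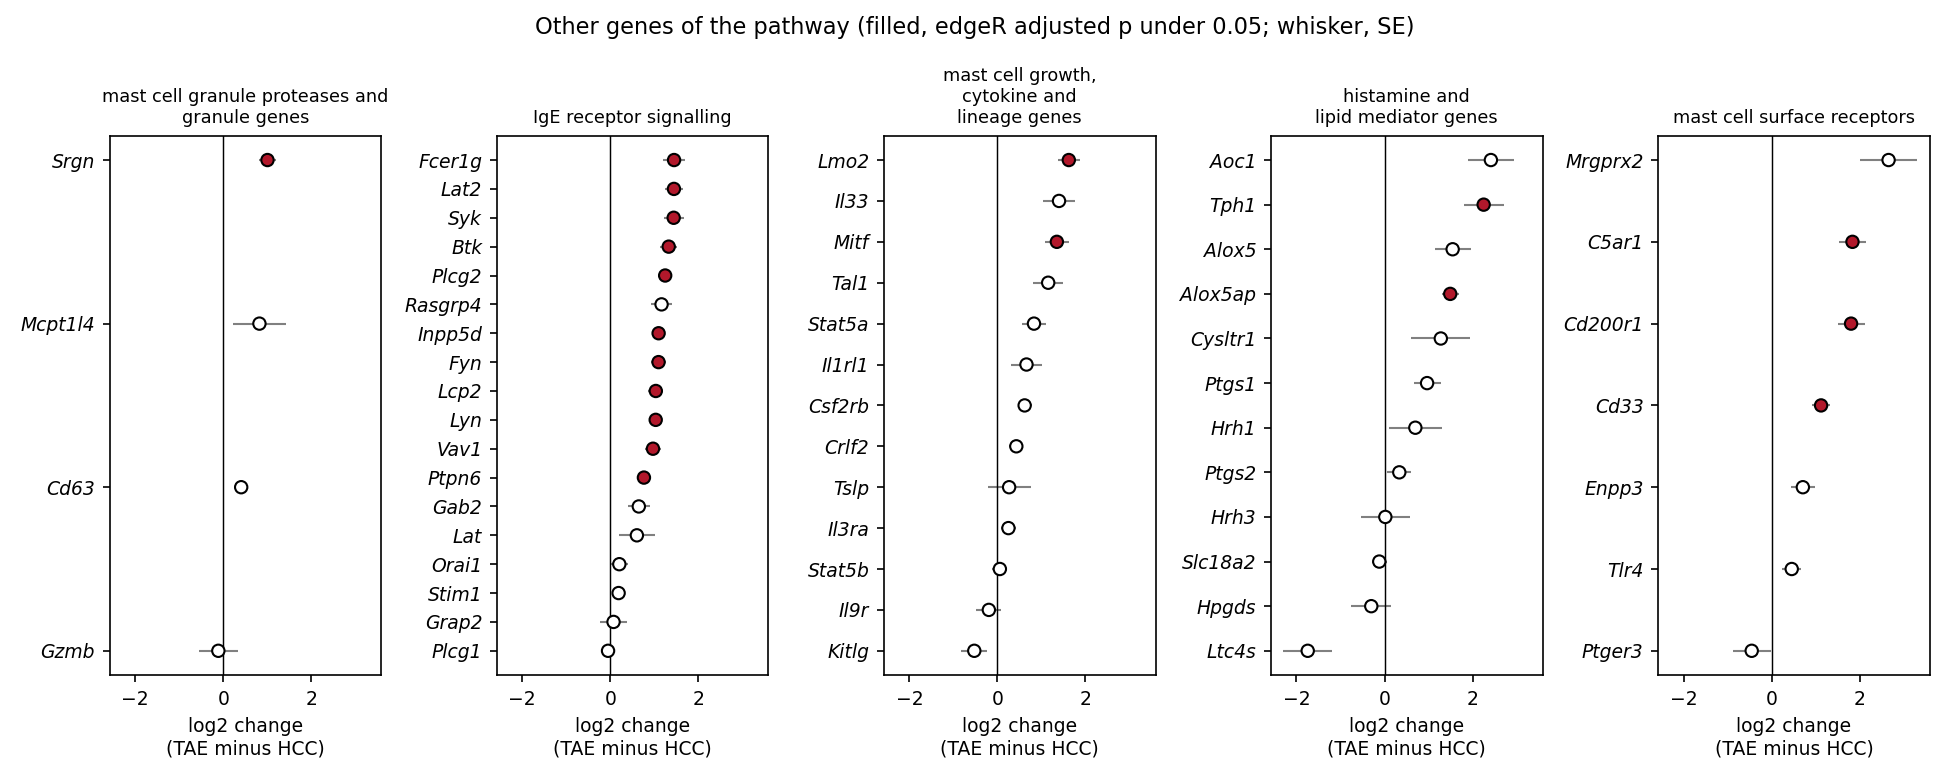
Log2 change, TAE minus HCC (horizontal axis), of the 54 tested genes of the 5 lists, 1 panel per list; whiskers are SE and filled points passed edgeR's adjusted p of 0.05. Of 18 IgE receptor signalling genes 11 are filled, and the other panels hold 1, 2, 2 and 3 filled points.

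Among growth, cytokine and lineage genes, 2 of 13 tested genes rose and 11 did not pass (median log2 change 0.62). Lmo2, a partner of GATA factors, averaged 35.2 ± 10.5 FPKM in TAE and 11.1 ± 1.05 FPKM in HCC (log2 change 1.62 ± 0.26, edgeR adjusted p = 0.0388). Mitf, a transcription factor that mast cells need and that macrophages also use, averaged 6.34 ± 1.501 FPKM in TAE and 2.45 ± 0.298 FPKM in HCC (log2 change 1.35 ± 0.27, edgeR adjusted p = 0.0490).

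The signals that feed mast cells gave no call in edgeR's test on all libraries. Kitlg, the ligand of Kit, was at 14.5, 17.8 and 6.42 FPKM in TAE replicates 1, 2 and 3, against 21.6, 15.3 and 15.3 FPKM in HCC replicates 1, 2 and 3 (log2 change -0.53 ± 0.29, edgeR adjusted p = 0.316). It was lowest in TAE replicate 3, the library with the most Cpa3. Il33, an alarmin that activates mast cells, was at 138, 74.6 and 123 FPKM in TAE and at 31.4, 59.8 and 34.0 FPKM in HCC (log2 change 1.40 ± 0.35, edgeR adjusted p = 0.0789). DESeq2 called Il33 (adjusted p = 0.00283), as did edgeR without TAE replicate 2 (adjusted p = 0.0112). Its receptor gene Il1rl1 had a log2 change of 0.66 ± 0.35 (edgeR adjusted p = 0.296).

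Of 12 tested histamine and lipid mediator genes, 2 rose and 10 did not pass in edgeR's test, while DESeq2 called 5 genes of the list higher and 1 lower. Alox5ap, the partner of 5-lipoxygenase in leukotriene synthesis, was at 19.5, 15.4 and 15.7 FPKM in TAE replicates 1, 2 and 3, against 5.91, 5.86 and 5.58 FPKM in HCC replicates 1, 2 and 3 (log2 change 1.49 ± 0.19, edgeR adjusted p = 0.0388). Tph1, which starts serotonin synthesis, was low in both groups, at 0.40 to 0.66 FPKM in TAE and 0.08 to 0.14 FPKM in HCC. Ltc4s, leukotriene C4 synthase, ran the other way at 1.49, 0.72 and 2.86 FPKM in TAE and 5.09, 4.56 and 7.41 FPKM in HCC (log2 change -1.74 ± 0.55, edgeR adjusted p = 0.129), and it was the gene that DESeq2 called lower (adjusted p = 0.0344). Aoc1, an enzyme that breaks down histamine, was at 8.75, 4.51 and 6.21 FPKM in TAE and 0.42, 1.92 and 1.20 FPKM in HCC (log2 change 2.42 ± 0.52, edgeR adjusted p = 0.0553), and DESeq2 called it (adjusted p = 0.000112). Hnmt, the other main histamine-degrading enzyme, had no read in any library.

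Of 7 tested surface receptors, 3 rose, namely C5ar1, Cd200r1 and Cd33, and 4 did not pass. C5ar1, the receptor of the complement fragment C5a, averaged 42.2 ± 9.55 FPKM in TAE and 11.6 ± 3.21 FPKM in HCC (log2 change 1.84 ± 0.30, edgeR adjusted p = 0.0388). Cd200r1, an inhibitory receptor, averaged 21.6 ± 6.69 FPKM in TAE and 6.11 ± 0.833 FPKM in HCC (log2 change 1.80 ± 0.31, edgeR adjusted p = 0.0398). Mrgprx2, the name under which the table lists a receptor of the family that serves mast cells in IgE-independent release, was at 0.55, 0.26 and 0.77 FPKM in TAE and 0.08, 0.14 and 0.03 FPKM in HCC (edgeR adjusted p = 0.0739). Of 4 tested granule genes, Srgn alone rose, the core protein of granule proteoglycans in many leukocytes, with 70.8 ± 10.3 FPKM in TAE and 34.4 ± 5.31 FPKM in HCC (edgeR adjusted p = 0.0487).

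Several of the 9 genes are shared with other cell types, whose markers were read in the same libraries. Basophils carry the same IgE receptor. Of 6 basophil markers, 4 matched the table, 2 of these had enough counts to be tested and neither passed. The sum of the 4 was 15.7 to 17.2 FPKM in TAE and 12.3 to 16.2 FPKM in HCC, nearly all of it Il3ra. The basophil protease Prss34 had 2 reads over all libraries. Mcpt8, also among the 6, had no row, but 2 genes named after it did. Mcpt8l3 was at 1.23, 1.12 and 1.70 FPKM in TAE replicates 1, 2 and 3. In HCC replicates 1, 2 and 3 it was at 0.75, 0.71 and 0.42 FPKM (log2 change 1.09 ± 0.37, edgeR adjusted p = 0.149). Like Mcpt8l2, given above, it was higher in every TAE library than in any HCC library. The part of basophils in these levels was not tested. For eosinophils the sum of 7 markers was 6.52 to 10.8 FPKM in TAE and 3.44 to 5.31 FPKM in HCC, mostly Siglec5, while Prg3 and Ear1 had no read and Epx was at 0.04 to 0.16 FPKM in TAE and 0 to 0.25 FPKM in HCC.

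Endothelial cells, which express Gata2, had a marker sum of 69.6 to 110 FPKM in TAE and 52.7 to 58.3 FPKM in HCC, with no call among 8 genes. Fibroblast and cholangiocyte sums were also higher in TAE (1063 to 2831 and 111 to 254 FPKM) than in HCC (413 to 669 and 17.8 to 59.0 FPKM), with 1 call in each list, and both were highest in TAE replicate 1. Collagen genes gave most of the fibroblast sum. Spp1 gave most of the cholangiocyte sum in TAE (88.0 to 209 FPKM, against 3.21 to 40.7 FPKM in HCC) and did not pass (edgeR adjusted p = 0.0982), and Krt7 had a log2 change of -0.22. Cd34, which blood progenitors share with endothelial cells, rose (7.58 to 15.4 FPKM in TAE and 2.29 to 3.50 FPKM in HCC, edgeR adjusted p = 0.0394), as did Spi1, a transcription factor of progenitors, macrophages and mast cells (43.0 to 51.1 FPKM in TAE and 18.1 to 21.2 FPKM in HCC, edgeR adjusted p = 0.0388). Dendritic cell markers summed to 37.7 to 44.6 FPKM in TAE and 21.8 to 27.4 FPKM in HCC, and those of innate lymphoid and NK cells to 76.5 to 112 FPKM in TAE and 64.3 to 71.6 FPKM in HCC. The part of these cell types in the levels of Kit, Gata2 and the receptor chains was not tested.

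**Figure D4:**
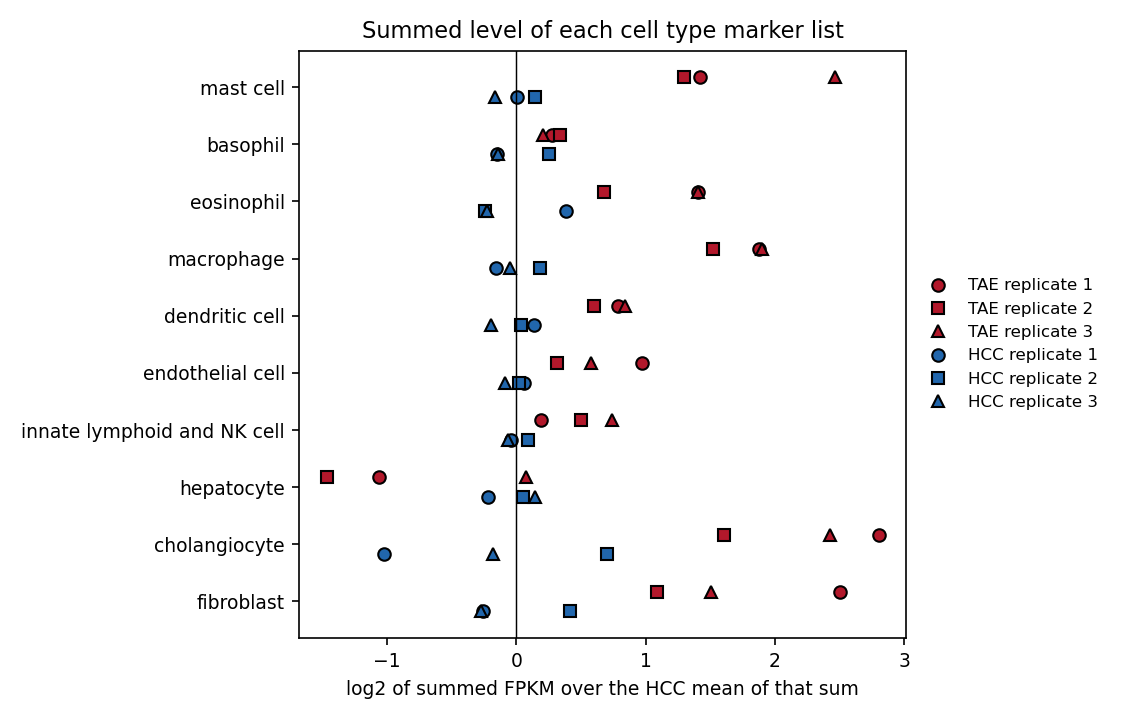
Summed FPKM of each reported marker list as log2 of its ratio to the HCC mean (horizontal axis), for each TAE and HCC library; symbols are replicates. The mast cell sum is nearly all made of the 9 genes and so restates their levels (2.46 in TAE replicate 3, against 1.42 and 1.30 in TAE replicates 1 and 2), while the hepatocyte sum, mostly Alb, lies at 0.08 in TAE replicate 3, against -1.07 and -1.46 in TAE replicates 1 and 2.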

How the data were processed

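RNA of rat liver was sequenced in 3 TAE and 3 HCC libraries, grouped by their titles. TRIzol extraction, poly(A) selection and strand-specific paired-end libraries are described in the labels' protocols. The authors deposited 1 table that gives each gene's read counts and FPKM in every library, per the file headers. Recomputed from counts, exonic sizes and library totals, FPKM differed from the deposited values by at most 0.005. The build is mRatBN7.2 in the submitters' processing notes, but gene ends on chromosome 1 reach 282724300 in the table, which is longer than that chromosome in this build, so coordinates are printed as deposited with their build unsettled. No source used here gives the aligner, the counter, its strand setting or how multi-mapping reads were treated, so values of close copies (the Mcpt genes) are uncertain as single genes.

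Counts were tested with the quasi-likelihood method of edgeR (version 4.0.16, under R 4.3.3) on the deposited counts, with TMM scaling, filterByExpr, no block, TAE minus HCC, two-sided, and Benjamini-Hochberg adjustment over all 14499 genes tested at a threshold of 0.05. Approximate standard errors are the absolute log2 change divided by the square root of F. Log2 CPM used a prior count of 2. Alternatives were DESeq2 (1.42.0), limma (3.58.1) on FPKM, other scalings, filters and pseudocounts, a replicate block, and leaving out each library in turn; DESeq2 without each library and edgeR's newer quasi-likelihood method were added after seeing the data. The labels do not say that replicates came from separate animals, so p-values reflect only the spread between these libraries, possibly technical. Every pair of replicates differed by more than counting alone gives (chi-square divided by its degrees of freedom, 47.7 to 194 within TAE and 5.50 to 13.2 within HCC).

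The 9 genes and the gene lists were chosen with earlier results of these data known. The text names the 9 genes, the 12 list genes with the smallest adjusted p and the 8 genes nearest to Cpa3. It also names 9 list genes whatever their result, among them Mcpt2, which has no row under that symbol. Further list genes were picked as examples once their values were known. Of 83 list entries 9 matched no symbol and were not analysed here. The haematopoietic progenitor marker list is not reported here as a sum. Promoter sequences are those of RefSeq (GRCr8). Total counts of 13448286 to 16604067 keep counting error small for abundant genes but not for those with few reads, such as Mcpt1l1 in HCC. The scripts were tested on simulated data.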

Additional observations from a re-analysis of the deposited data

How the results depend on the processing

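The 9 log2 changes kept their sign under each of the 15 settings other than those added after seeing the data, with a range of 1.63 to 2.64 for Cpa3, 1.55 to 2.28 for Mcpt1, 1.87 to 3.41 for Mcpt1l1, 1.56 to 2.92 for Fcer1a, 1.66 to 3.57 for Cma1, 0.79 to 1.40 for Kit, 1.08 to 2.35 for Ms4a2, 0.45 to 0.83 for Gata2 and -1.03 to -0.60 for Hdc. Calls moved far more than values. Against 437 genes called, upper-quartile scaling gave 720, no filter on low counts 829, DESeq2 1664, and limma 701 and 709 with pseudocounts of 1 and 0.1. Of the 9 genes, edgeR called 2, and these settings called 5, 6, 7, 4 and 5, while of the pathway genes DESeq2 called 29, against 19 by edgeR. RLE scaling, limma without a filter and edgeR's newer method stayed within 1.5 times of each count. Leaving out 1 library gave 0 to 3569 genes, 0 to 31 pathway genes and 0 to 7 of the 9 genes with edgeR. With DESeq2 it gave 20 to 33 pathway genes and 6 to 7 of the 9 genes. The calls among the 9 genes were all higher in TAE except Hdc, called lower without TAE replicate 1. Without TAE replicate 3, edgeR and DESeq2 each called 1 pathway gene lower. DESeq2 called 852, 992 and 696 genes without HCC replicates 1, 2 and 3 and 756, 4147 and 2105 without TAE replicates 1, 2 and 3. The cause of these shifts was not tested. The deviations of same-numbered libraries correlated at 0.10, -0.21 and 0.03 for numbers 1, 2 and 3, and those of differently numbered libraries at -0.19 to 0.16. With 3 libraries per group, these values cannot tell whether same-numbered libraries share more than a number. With the replicate block, edgeR called 0 genes, 0 pathway genes and 0 of the 9 genes (2984, 32 and 9 at an unadjusted p under 0.05), a fit with fewer residual degrees of freedom. No symbol of the 9 had a repeated row, so adding rows could not be tried, and the planned legacy setting of edgeR is this version's default, so it equals the reported fit. Tpsab1, Tpsb2, Ctsg and the receptor genes near 0.1 FPKM had too few reads for depth to show a difference smaller than several-fold.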
